A study of Mus musculus with 6 samples.

Results

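The genes described here encode Rab GTPases and were taken by name: every gene symbol made of Rab, a number and at most a single letter. The rule found 59 of the 55291 gene symbols counted in mouse full-grown oocytes, the large germinal-vesicle cells of the ovary that store maternal mRNA. Oocytes labelled wild type (WT) were compared with oocytes labelled knockout (KO) for Pan2, whose product is the nuclease of the PAN2-PAN3 complex and trims the poly(A) tails of mRNAs. The labels name 3 samples per genotype and give no treatment. Strain, age, the deleted part of Pan2, any Cre driver and the number of females or oocytes behind each sample are not stated in the labels. The comparison rests on 4 libraries, WT 1 and KO 1 to KO 3; WT 3 was not analysed here, and WT 2 is set apart below. Where 3 values are given for KO, they stand in the order KO 1, KO 2, KO 3.

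Rab proteins are small GTPases that act as membrane switches. Guanine nucleotide exchange factors (GEFs) load them with GTP, GTPase-activating proteins (GAPs) return them to the GDP form, and in between they recruit effectors such as motors, tethers and adaptors to a given membrane. Prenylation by a geranylgeranyl transferase together with an escort protein lets them insert into membranes, and a dissociation inhibitor takes them out again. In mouse oocytes, RAB11A-positive vesicles drive the actin network that positions the spindle, and RAB27A and RAB3A act on cortical granules, the secretory granules released at fertilisation.

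Because PAN2 acts on the poly(A) tail, the last bases of the members the results turn on are shown first. Each line is a window of 30 bases near the annotated 3′ end, on the sense strand, from GENCODE M21 (GRCm38), with the poly(A) signal AATAAA, or ATTAAA where no AATAAA is present, in capitals.
Rab38: aaatgcacttctacatttgatttgagaaag
Rab7: agagacgaacgtgatgccAATAAAatttaa
Rab11a: ggagtacatcctcatcctAATAAAcagtta
Rab17: atgtccttctctccaaatATTAAAcgtctt
Rab32: caaaattaaaaaaaaaatAATAAAagggtt
Rab3d: ggaaaaaatgtatAATAAAATAAAggaagc
Rab27a: ataatAATAAAaaaaaatAATAAAagaggt
The windows lie at chr7:88491543-88491572 for Rab38 (plus strand), chr6:87999121-87999150 for Rab7 (minus), chr9:64715313-64715342 for Rab11a (minus), chr1:90958144-90958173 for Rab17 (minus), chr10:10545016-10545045 for Rab32 (minus), chr9:21907504-21907533 for Rab3d (minus) and chr9:73097588-73097617 for Rab27a (plus), all within annotated 3′ untranslated regions. Rab3d carries 2 overlapping signals and Rab27a carries 2 apart from each other, while the Rab38 window holds neither signal. The Rab32 window also holds attaaa, left in lower case, upstream of its AATAAA. Of the 58 Rab genes with a 3′ untranslated region of at least 100 bases, AATAAA stood in the last 40 bases of 32, or 55.2%, beside 60.4% of 19374 protein-coding genes. ATTAAA alone stood there in 14, or 24.1%, beside 13.2%. TTTTAT or TTTTAAT, the letters of the cytoplasmic polyadenylation element that CPEB proteins bind, stood in the last 100 bases of 10 Rab genes, or 17.2%, beside 17.9%. The 10 were Rab2b, Rab3c, Rab5a, Rab6a, Rab8b, Rab9, Rab11a, Rab18, Rab20 and Rab39, and Rab6a, Rab11a and Rab20 held more than a single copy. Only the sense strand was searched, and matches of different motifs may share bases. The annotated 3′ untranslated regions of Rab genes had a median length of 1950 bases, against 943 for all protein-coding genes. Which 3′ end the oocyte transcripts used was not measured.

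WT 1 held 23485093 counts, and the KO libraries held 12038990, 23359636 and 26770521. Levels are given as CPM, the count scaled by the effective size of its library. Floors and intervals cover counting error only, because amplified reads are not independent molecules. WT 2 had 3785574 counts, and its log2(CPM + 1) correlated with the other libraries at 0.07 to 0.078 over genes, against 0.968 to 0.993 among the others. In WT 2, 33 of the 59 Rab genes and 9 of 12 oocyte markers were at 0, so it was kept out of the comparison. Nothing in the labels ties replicates to separate females, so a p-value here speaks of library-to-library spread, possibly technical. The targeted gene, Pan2, was at 77.6 CPM in WT 1 and at 44.6, 11.9 and 34.0 CPM in KO, which edgeR fitted as -1.37 on the log2 scale (SE 0.53, adjusted p = 0.301); where the deletion lies relative to the counted exons is not known here. The 12 oocyte markers summed to 27546 CPM in WT 1 and 23942 to 28861 CPM in KO. The 14 granulosa and cumulus markers summed to 63.8 CPM in WT 1 and 84.4 to 100.3 CPM in KO, with Ptx3, Tnfaip6 and Npr2 at 0 in all 4 libraries. The 10 theca, stroma and endothelium markers summed to 17.3 CPM in WT 1 and 29.99 to 30.48 CPM in KO, with Col1a2, Col3a1 and Cdh5 at 0. Both sums were lower in WT 1 than in every KO library, and their part in the Rab values was not tested. Single genes made up most of each gap. Cyp19a1 was at 13.9 CPM in WT 1 and 35.1, 46.1 and 35.3 CPM in KO. Pecam1 was at 14.7 CPM in WT 1 and 24.7, 25.7 and 26.3 CPM in KO. WT 1 was also below every KO library for Inhba, Kitl, Dcn, Star and Kdr. In the other direction, WT 1 was above every KO library for Foxl2, Hsd17b1 and Col1a1, and Nr5a2 lay within the KO range. The 5 blood markers summed to 0 to 0.268 CPM. In pooled RNA, fewer cells of a type and less RNA per cell cannot be told apart.

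The Rab genes took 0.283% of the counts in WT 1 and 0.296%, 0.318% and 0.317% of those in KO. Their summed level was 2776 CPM in WT 1 and 3129 ± 214 CPM in KO (SD, n = 3), and WT 1 lay below every KO library. A total of 47 members had counts in all 4 libraries. Rab19, Rab26, Rab39 and Rab42 had 0 counts in all of them, which allows a level of up to 0.125 CPM in WT 1 and up to 0.0488 CPM over the KO group.

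Per length, 3 genes stood above the rest, as the plot of levels shows: Rab38, Rab7 and Rab11a. Their levels, taken as the mean of WT 1 and the KO mean, were 145.5, 137.0 and 119.3 CPM per kb of exon. RAB38 acts in the biogenesis of lysosome-related organelles, RAB7 in the maturation of late endosomes and lysosomes, and RAB11A in recycling endosomes. Their order changed between libraries: Rab38 was first in WT 1, Rab11a in KO 1, and Rab7 in KO 2 and KO 3, so the 3 cannot be ranked beyond their spread. The fourth was Rab2a at 44.3 CPM per kb. Rab4a, Rab1b, Rab3b, Rab3d, Rab14 and Rab6a followed between 41.2 and 30.6 CPM per kb, with library values that overlapped between neighbours. The 4 highest genes of a library held 47.6% of its summed Rab level per kb in WT 1, 44.6% in KO 1, and 52.6% in both KO 2 and KO 3. Members at 5 CPM or more numbered 31 to 32 in each library.

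**Figure D1:**
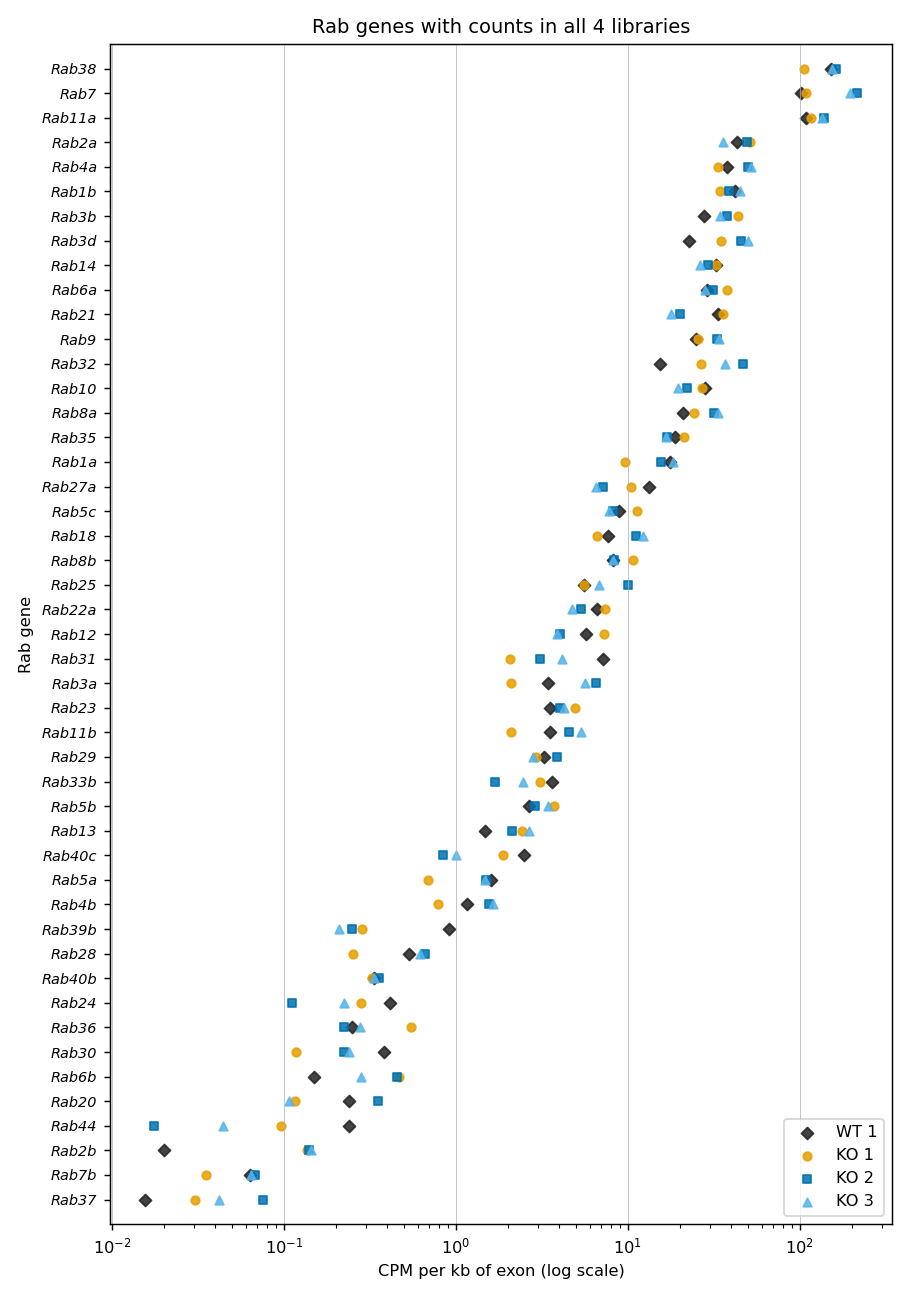
Level of 47 Rab genes with counts in all 4 libraries, as CPM per kb of exon on a log axis, ordered by the mean of WT 1 and the KO mean; each symbol is a library. Rab38, Rab7 and Rab11a stand above Rab2a, and the lowest genes lie more than 3 orders of magnitude beneath them.

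In the test across all genes (edgeR quasi-likelihood, Benjamini-Hochberg adjustment over 17799 genes, threshold 0.05), 1 Rab gene was called lower in KO, Rab17, and 0 were called higher. Rab17 entered the test through WT 1, the single library in which it had counts, so this call is given as a description and supports nothing about the family. The single WT library was assumed to vary as the KO libraries do. Of the 59 members 48 passed the filter on low counts, and 5 of these had an unadjusted p under 0.05: Rab17, Rab31 and Rab39b lower in KO, Rab32 and Rab3d higher. The share of all genes at an unadjusted p under 0.05 is not given. This count, and those by role group and list below, therefore cannot be read as a trait of the Rab genes or lists. Among all genes tested, 0.612% were called lower, 1.32% higher and 1.93% in either direction, beside 2.08% of the Rab genes called lower. DESeq2 gave no adjusted p for Rab17 and called 0 Rab genes, with 5 at an unadjusted p under 0.05, and limma-voom called Rab17; over all genes, DESeq2 called 3.87% and limma-voom 1.29%. The median log2 fold change was 0.05 over the Rab genes, also with Rab17 and Rab33a at their bounds, and 0.02 over all genes. Of the members 26 lay above 0 and 22 below, beside 9129 of all genes above and 8670 below. WT 1 lay below all KO libraries for 13 of 48 Rab genes (27.1%, beside 29.1% of all genes) and above all of them for 11 (22.9%, beside 29.2%). The standard errors of members with a KO mean over 5 CPM ran from 0.31 to 0.59 on the log2 scale, so modest differences were not detectable with these libraries.

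**Figure D2:**
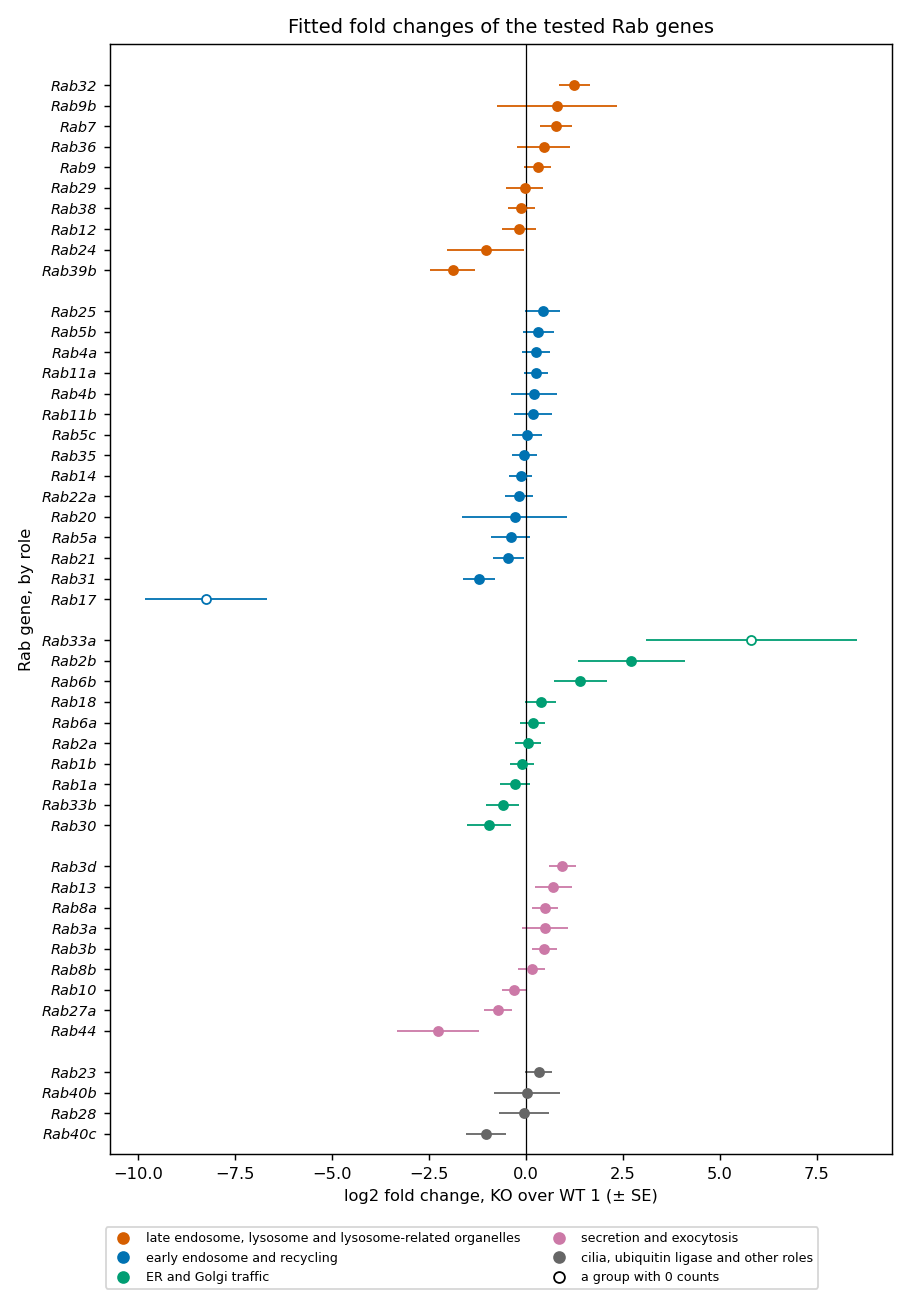
Fitted log2 fold change of KO over WT 1 with its standard error for the 48 Rab genes tested, grouped and coloured by role; open symbols mark Rab17 and Rab33a, for which a group had 0 counts, so that their fitted values depend on the prior count. Most members lie within 2 SE of 0.

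Early endosome and recycling genes formed the largest group, with 16 members, of which 15 were tested and 1, Rab17, was called. Rab17 (ENSMUSG00000026304.13, chr1:90958133-90969661 in mm10, minus strand) had 42 counts in WT 1, or 1.76 CPM, and 0 counts in every KO library. RAB17 is known from polarised epithelial cells, where it acts in recycling and transcytosis. Set against a floor of 3 counts over the KO group, its level was at least 35.9-fold lower in KO (edgeR fitted log2 fold change -8.23, SE 1.57, adjusted p = 0.041). Its adjusted p became 0.0531, above the threshold, when library size alone set the scale. Rab31, whose product acts between the Golgi and endosomes, was at 27.5 CPM in WT 1 and 7.88, 11.8 and 15.8 CPM in KO. WT 1 was above every KO library without overlap, but the difference did not pass over all genes (log2 fold change -1.21, SE 0.41, edgeR adjusted p = 0.23).

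None of the abundant recycling genes passed the test. Rab11a was at 326 CPM in WT 1 and 349, 411 and 403 CPM in KO (log2 fold change 0.25, SE 0.31, edgeR adjusted p = 0.781). Its WT value was the lowest of the 4, and the gap to KO 1 was smaller than the range among KO libraries. Rab14, of endosome to Golgi and surface transport, was at 440 CPM in WT 1 and 444, 399 and 359 CPM in KO, with WT 1 inside the KO range (-0.14, SE 0.31, edgeR adjusted p = 0.89). Rab4a, of fast recycling, was at 65.8 CPM in WT 1 and 58.5, 87.3 and 91.5 CPM in KO, also overlapping (0.27, SE 0.36, edgeR adjusted p = 0.799). Rab35, of recycling to the cell surface, was at 53.0 CPM in WT 1 and 60.0, 47.8 and 46.8 CPM in KO (-0.04, SE 0.33, edgeR adjusted p = 0.973). For these 4 genes the fitted difference was smaller than its SE. Rab5a, of early endosome fusion, was at 8.44 CPM in WT 1 and 3.65, 7.87 and 7.74 CPM in KO; the first of these was the low library and KO 2 and KO 3 were near WT 1 (-0.38, SE 0.50, edgeR adjusted p = 0.796). Rab11b was at 21.7 CPM in WT 1 and 12.9, 27.8 and 32.7 CPM in KO, with KO 1 again low and WT 1 inside the KO range (0.18, SE 0.49, edgeR adjusted p = 0.911). The group's summed level was 1204 CPM in WT 1 and 1177 ± 47.2 CPM in KO (SD, n = 3).

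Among the 12 genes of late endosomes, lysosomes and lysosome-related organelles, 10 were tested, 0 passed the test with edgeR, and Rab32 and Rab39b had an unadjusted p under 0.05. Rab32, the close relative of Rab38 in melanosome and lysosome-related organelle biogenesis, was at 36.0 CPM in WT 1 and 62.1, 109.6 and 85.4 CPM in KO. Every KO library was above WT 1, and the KO libraries spread over a wider range than the gap between WT 1 and KO 1 (log2 fold change 1.25, SE 0.40, edgeR adjusted p = 0.187). Rab7 was at 263 CPM in WT 1, 284 CPM in KO 1, 559 CPM in KO 2 and 513 CPM in KO 3. KO 1 lay beside WT 1 and far from the other KO libraries (0.78, SE 0.42, edgeR adjusted p = 0.463); 7.8% of its exon bases overlap Gm5577 on the opposite strand. Rab38 was at 238 CPM in WT 1 and 167, 254 and 241 CPM in KO, with WT 1 inside the KO range (-0.11, SE 0.34, edgeR adjusted p = 0.922).

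Rab39b, an X-linked gene with a role in autophagy and neuronal trafficking, was at 3.09 CPM in WT 1 and 0.975, 0.849 and 0.711 CPM in KO. The KO values lay close together and below WT 1 (log2 fold change -1.88, SE 0.58, edgeR adjusted p = 0.168), the lowest adjusted p after Rab17. Of its exon bases 18.6% overlap Gm15063 on the opposite strand, and without a stated strand setting the reads of the pair cannot be told apart. Rab24, linked to autophagy, was at 0.836 CPM in WT 1 and 0.568, 0.223 and 0.449 CPM in KO (-1.04, SE 0.99, edgeR adjusted p = 0.711), and 62.4% of its exon bases overlap Prelid1. The group summed to 610 CPM in WT 1, 589 CPM in KO 1, 1002 CPM in KO 2 and 918 CPM in KO 3, so KO 1 resembled WT 1 and the other KO libraries were higher.

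**Figure D3:**
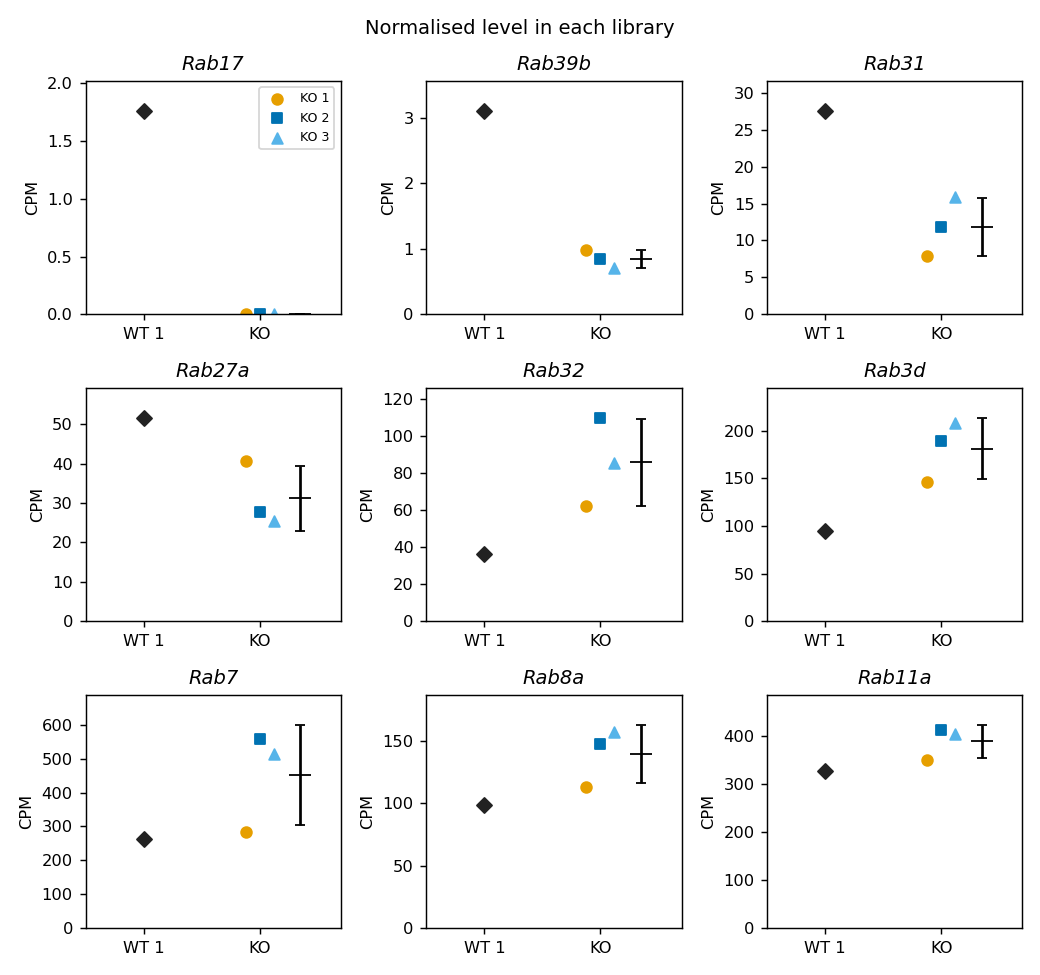
CPM of 9 Rab genes in each library on linear axes from 0, with WT 1 at left, the KO libraries by symbol and the KO mean ± SD (n = 3) at right. WT 1 lies above all KO libraries for Rab17, Rab39b, Rab31 and Rab27a and below all of them for Rab32, Rab3d, Rab7, Rab8a and Rab11a; Rab17 alone passed the test across all genes.

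The secretion and exocytosis group had 13 members, of which 9 were tested, with 0 passing in edgeR and Rab3d at an unadjusted p under 0.05. Its median log2 fold change was 0.48, beside 0.02 over all genes, and its summed level was 491 CPM in WT 1 and 610, 634 and 639 CPM in KO. Rab3d, of regulated secretion, was at 94.6 CPM in WT 1 and 146, 190 and 208 CPM in KO. All KO libraries were above WT 1, KO 1 the nearest to it (log2 fold change 0.94, SE 0.35, edgeR adjusted p = 0.268). Rab3b, of the same subfamily, was at 97.6 CPM in WT 1 and 154, 132 and 122 CPM in KO, with KO 1 the highest (0.48, SE 0.32, edgeR adjusted p = 0.571). Rab3a, of the cortical granules, was much lower at 7.61 CPM in WT 1 and 4.63, 14.6 and 12.5 CPM in KO, and its KO libraries lay on both sides of WT 1 (0.49, SE 0.59, edgeR adjusted p = 0.777). Rab8a, of transport from the Golgi to the plasma membrane, was at 98.1 CPM in WT 1 and 113, 148 and 157 CPM in KO, all above WT 1 (0.51, SE 0.33, edgeR adjusted p = 0.567).

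Rab27a, the cortical granule and secretory lysosome gene, was at 51.5 CPM in WT 1 and 40.7, 27.7 and 25.4 CPM in KO. WT 1 was above all KO libraries, in the direction opposite to Rab3d and Rab8a (log2 fold change -0.72, SE 0.36, edgeR adjusted p = 0.424). Its paralogue Rab27b had 2 counts in WT 1 and 2 over the KO group, too few to test: WT 1 was 2.57-fold higher per effective library size, with an exact 95% binomial interval of the ratio from 0.186 to 35.4. Rab44, a large Rab with additional domains, was at 1.21 CPM in WT 1 and 0.487, 0.0894 and 0.224 CPM in KO (-2.26, SE 1.05, edgeR adjusted p = 0.39). It was scarce in every library, and WT 1 was the highest.

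Of the 11 members that act in ER and Golgi traffic, 10 were tested and 0 passed in edgeR, nor did any have an unadjusted p under 0.05. Rab1b, of ER to Golgi transport, was at 95.0 CPM in WT 1 and 77.8, 88.3 and 101.7 CPM in KO (log2 fold change -0.09, SE 0.31, edgeR adjusted p = 0.933). Rab2a, of the same step, was at 92.5 CPM in WT 1 and 109, 105 and 76.1 CPM in KO (0.06, SE 0.33, edgeR adjusted p = 0.96). Rab6a, of transport within and from the Golgi, was at 107 CPM in WT 1 and 141, 117 and 105 CPM in KO (0.18, SE 0.32, edgeR adjusted p = 0.858), with 19.0% of its exon bases overlapped by Mrpl48. WT 1 lay within the KO range for each of these 3 genes. The summed level of the group was 431 CPM in WT 1 and 444 ± 15.8 CPM in KO (SD, n = 3).

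The less abundant members of this group lay on both sides of WT 1 in value, and none passed. Rab30, of the Golgi, was at 3.68 CPM in WT 1 and 1.14, 2.15 and 2.32 CPM in KO, all below WT 1 (log2 fold change -0.95, SE 0.56, edgeR adjusted p = 0.513). Rab33b, of the Golgi and autophagy, was at 12.8 CPM in WT 1 and 10.9, 5.99 and 8.64 CPM in KO, also all below WT 1 (-0.60, SE 0.44, edgeR adjusted p = 0.608). In the other direction, Rab6b was at 0.752 CPM in WT 1 and 2.36, 2.28 and 1.42 CPM in KO (log2 fold change 1.41, SE 0.69, edgeR adjusted p = 0.419). Rab2b had 2 counts in WT 1 and 36 over the KO group, a count ratio of 7.01 per effective library size with an exact 95% binomial interval from 1.81 to 60.1 (edgeR adjusted p = 0.433). Of the Rab2b exon bases 64.0% overlap Tox4 and Gm43766 on the opposite strand, so its reads cannot be told apart from theirs. Rab33a, the relative of Rab33b, had 0 counts in WT 1 and 18 over the KO group. With the 18 taken as exact, it was at least 2.34-fold higher in KO against a floor of 3 counts (edgeR adjusted p = 0.394). Rab2b and Rab33a entered the test through the KO libraries alone, so their values, and the Rab2b interval, are given as descriptions.

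The remaining 7 members have roles in cilia, ubiquitin ligases or elsewhere; 4 were tested and 0 passed in edgeR, with none at an unadjusted p under 0.05. Rab23, a regulator of Hedgehog signalling at the cilium, was at 29.2 CPM in WT 1 and 41.0, 33.5 and 35.5 CPM in KO (log2 fold change 0.33, SE 0.34, edgeR adjusted p = 0.734). Every KO library was above WT 1, and the fitted difference was smaller than its SE. Rab40c, a substrate receptor of cullin-5 ubiquitin ligases, was at 7.73 CPM in WT 1 and 5.85, 2.59 and 3.10 CPM in KO, all below WT 1 (-1.03, SE 0.53, edgeR adjusted p = 0.44).

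The 11 members left out by the filter were Rab3c, Rab7b, Rab15, Rab19, Rab26, Rab27b, Rab34, Rab37, Rab39, Rab42 and Rab43. None had more than 9 counts, or 0.402 CPM, in a library. They include Rab3c, a synaptic vesicle member of the Rab3 subfamily.

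KO 1 differed from the other KO libraries in several of the patterns above. Among the 31 members with a mean of at least 5 CPM, KO 1 was the lowest KO library for 16 and the highest for 15, and KO 2 and KO 3 lay within 1.5-fold of each other for all 31. The shares over all genes are not given for these counts, so they cannot be read as a trait of the Rab genes. The highest KO value was a median of 1.52 times the lowest, against 1.46 for the 9975 genes at that level, and the widest spread was 3.15-fold, for Rab3a. Without KO 1, with 2 KO libraries left, 14 of 47 Rab genes passed (29.8%), beside 28.1% of all genes, so the Rab share stayed near the background. The 6 higher in KO in that fit were Rab3a, Rab3d, Rab7, Rab8a, Rab18 and Rab32. The 8 lower were Rab17, Rab21, Rab27a, Rab31, Rab33b, Rab39b, Rab40c and Rab44. In the same fit the log2 fold change was 1.44 for Rab32, 1.08 for Rab3d, 1.03 for Rab7 and 0.64 for Rab8a. It was -0.95 for Rab27a, -0.99 for Rab31 and -1.98 for Rab39b. The spread in that fit came from KO 2 and KO 3 alone, which lay close together, so its p-values are not given. KO 1 had the fewest counts of the 4 libraries; the part of depth was not tested.

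The balance between related genes, as shares of their summed CPM per kb, differed among libraries by gene set. Rab38 held 90.8% of the Rab32 and Rab38 sum in WT 1 and 77.5% to 80.7% in KO, and Rab32 rounded out the rest, 9.25% in WT 1 against 19.3% to 22.5% in KO. This was the widest separation of WT 1 from KO shown in the plot of shares relative to the range among KO libraries. Rab31 held 52.3% of the sum with Rab22a in WT 1 and 21.9% to 46.6% in KO, a range among KO libraries wider than its distance from WT 1. Rab11a held 92.3% of the Rab11a, Rab11b and Rab25 sum in WT 1 and 90.4% to 93.9% in KO, which overlap. In the Rab3 set, Rab3b and Rab3d held 51.6% and 42.0% in WT 1, and 38.5% to 54.2% and 43.2% to 55.3% in KO. Rab8a held 72.0% of its sum with Rab8b in WT 1 and 69.2% to 80.5% in KO, while Rab5c held 67.5% of the Rab5 sum in WT 1 and 61.2% to 71.9% in KO. Several pairs were almost wholly a single gene: Rab2a, Rab6a, Rab7 and Rab27a held at least 98.6% of their sums with Rab2b, Rab6b, Rab7b and Rab27b in every library. These shares are descriptions and were not tested.

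**Figure D4:**
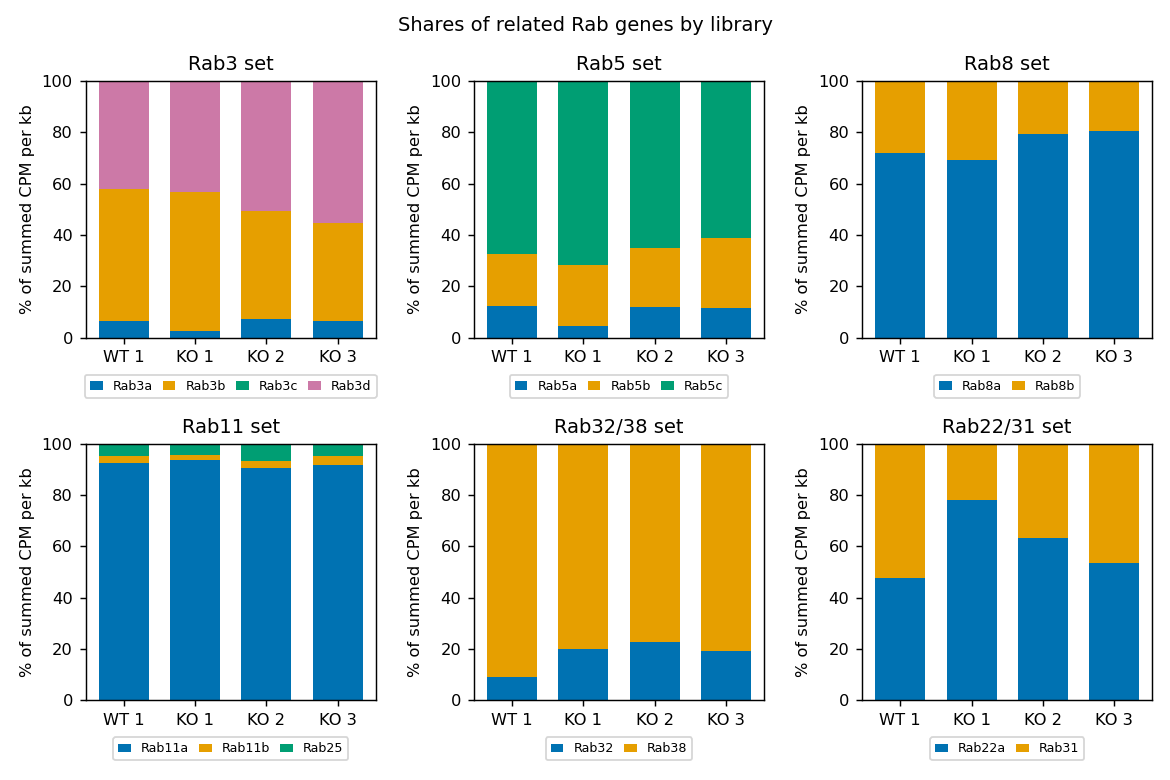
Share of each related Rab gene in the summed CPM per kb of its set (percent, bars stacked to 100), by library, for 6 sets. Rab32 takes 9.25% of the Rab32/38 set in WT 1 and 19.3% to 22.5% in KO, whereas Rab11a takes over 90% of its set in all 4 libraries.

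The machinery that loads, switches and reads Rab proteins was followed in 5 lists, and no member of any list passed edgeR's test. Over all genes tested, 9129 lay above 0 and 8670 below, and the splits of the lists were not tested against this. Of the 8 prenylation and recycling genes, all tested, 4 lay above 0 and 4 below, with a median log2 fold change of 0.01. Chml, an escort protein that presents Rabs to the geranylgeranyl transferase, was its single gene at an unadjusted p under 0.05: 5.81 CPM in WT 1 and 1.95, 2.19 and 3.07 CPM in KO (-1.26, SE 0.49, edgeR adjusted p = 0.299). Among 50 GEF genes tested, 20 lay above 0 and 30 below, with a median of -0.19; 3 had an unadjusted p under 0.05, of which 1 was higher and 2 were lower in KO. Rin2, a GEF of the RAB5 group, was at 2.42 CPM in WT 1 and 7.63, 9.88 and 10.3 CPM in KO, all KO libraries above WT 1 (1.94, SE 0.49, edgeR adjusted p = 0.0929, and 0.00775 with DESeq2). Dennd5a, a DENN domain GEF of RAB39, was at 18.9 CPM in WT 1 and 7.23, 7.19 and 7.52 CPM in KO, all KO libraries below WT 1 (-1.37, SE 0.37, edgeR adjusted p = 0.111). Sbf1, a myotubularin relative with a DENN domain, was at 15.8 CPM in WT 1 and 6.90, 8.76 and 9.54 CPM in KO, likewise below (-0.91, SE 0.39, edgeR adjusted p = 0.346).

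Of 33 GAP genes tested, 15 lay above 0 and 18 below (median -0.16), and 0 had an unadjusted p under 0.05 in edgeR. The one with the lowest p, Tbc1d31, a TBC domain gene of centriolar satellites, was at 3.93 CPM in WT 1 and 1.14, 2.01 and 2.28 CPM in KO (-1.09, SE 0.56, edgeR adjusted p = 0.436). Of 50 effector genes tested, 17 lay above 0 and 33 below (median -0.09), beside 9129 above and 8670 below over all genes, a split not tested. Rims1 and Appl2 were the 2 effector genes at an unadjusted p under 0.05 in edgeR, both higher in KO in value. Rims1, a RAB3 effector of regulated exocytosis, was at 2.72 CPM in WT 1 and 5.52, 13.0 and 9.65 CPM in KO, again all above WT 1 (1.79, SE 0.58, edgeR adjusted p = 0.198, and 0.0486 with DESeq2). Of 7 Rab-like GTPase genes outside the name rule, 4 lay above 0 and 3 below (median 0.30), with 1 at an unadjusted p under 0.05. That gene, Rasef, which encodes a Rab with EF-hand domains, was at 0.167 CPM in WT 1 and 1.30, 0.983 and 1.27 CPM in KO (2.78, SE 0.93, edgeR adjusted p = 0.217). Rasef entered the test through the KO libraries alone, so its values are given as a description. DESeq2 called 1 GEF gene and 1 effector gene and 0 in the other lists, beside 3.87% of all genes, and limma-voom called 0 in each list, beside 1.29%. With no filter on low counts edgeR called 1 GEF gene and 1 effector gene, beside 3.07% of all genes, and at a threshold of 0.1 it called 1 GEF gene, beside 3.06%. A single call among 50 genes does not exceed these background shares. Without KO 1, the genes called were 2 of 8 in prenylation and recycling, 13 of 50 GEFs, 3 of 33 GAPs, 9 of 49 effectors and 4 of 7 Rab-like genes, beside 28.1% of all genes.

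The 10 Rab genes with the cytoplasmic polyadenylation letters near their 3′ end and the others are given side by side as a description. Of the 10, 8 were tested and 6 lay above 0, with a median log2 fold change of 0.21 and a range from -0.38 to 2.72. Of the other 49, 40 were tested and 20 lay above 0, with a median of -0.003. The difference between the sets was not tested.

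Promoters, taken from RefSeq (GRCm38.p6) as 250 bases before to 50 after the start, were found for 48 Rab genes, 60 promoters in all. A GC box (GGGCGG, either strand) stood in 68.3% of them, against 35.7% of 32851 promoters, and the median CpG count was 19.5 against 7. The 32851 promoters, of 27025 genes, were not filtered by gene type, whereas all Rab members are protein-coding, so the sets are unlike. TATAAA (either strand) stood in 6.7% against 13.6%, and CANNTG, which reads alike on both strands, in 68.3% against 72.3%. Among the 40 Rab genes with a single promoter, the 21 with at least 23 CpG had a median level of 8.62 CPM per kb (0 to 40.6), and the 19 with fewer had 0.579 CPM per kb (0 to 119.3). The 2 sets overlapped, and Rab11a, at 119.3 CPM per kb, stood in the set with fewer. No promoter was found for Rab38, Rab2a and Rab4a, and Rab7 had 2, so these highly expressed genes are in neither set. A match says only that these letters are in the window.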

How the data were processed

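Full-grown mouse oocytes were sequenced with Smart-seq2, where oligo(dT) primes the cDNA and PCR amplifies it, per the labels' protocols. Priming on the tail means that a changed tail length could alter capture as well as abundance. Per the submitters' processing notes, Trim Galore 0.6.7, STAR 2.7.10a, featureCounts 2.0.2 and DESeq2 were used with mm10. Annotation release, strand setting and handling of reads on overlapping genes were not given in the sources used here. Per the file headers, the deposited table holds unnormalised read counts for each gene in 5 library columns. Sample titles name full-grown oocytes and were followed, although the design text names zygotes and the 2-cell stage.

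The counts of WT 1 and KO 1 to KO 3 were fitted with edgeR 4.0.16 (R 4.3.3): quasi-likelihood test with robust=TRUE, TMM factors, filterByExpr with a smallest group of 1, with adjustment by Benjamini-Hochberg across the 17799 genes that passed, at 0.05. The SE is the log2 fold change divided by the square root of F. CPM is the count over the TMM effective library size, and CPM per kb divides it by the exon length in the deposited table. Total counts ran from 12038990 to 26770521 in the libraries used. A group with 0 counts was given a floor of 3 counts over the group, and a gene with 1 to 3 counts an exact 95% binomial interval. For the floor, the counts of the other group were taken as exact. All 59 members matched GENCODE M21 by name and coordinates; 20 share exon bases with other genes, 9 of them by more than 10%.

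Members with full statistics were those past the threshold, the 5 lowest p in each direction, the 10 highest levels per kb and those with a role described in oocytes, 27 in all; others are given in ranges or counts, and Rab30, Rab33b, Rab40c, Dennd5a, Sbf1, Appl2 and the genes of the fit without KO 1 were picked after their values were seen. From each list of the pathway the gene with the lowest p was named. The members, role groups and lists were chosen with earlier results of these data known. St5 of the GEF list was not found in the table by name. Alternatives were DESeq2 1.42.0 and limma-voom 3.58.1, DESeq2 size factors, library size alone, no filter, a mean of at least 5 CPM, robust=FALSE, a threshold of 0.1, predicted and pseudogene names left out, leaving out each KO library, and both WT libraries with and without a replicate block. The fit was tested on simulated counts with the spread of the KO libraries, as WT 1 against KO 1, KO 2 and KO 3. There edgeR called 8% of genes changed 2-fold, 72% of genes changed 4-fold and 0.142% of unchanged genes. A Rab gene that did not pass may thus still differ 2-fold. The changed genes were drawn from genes above a minimum expected count, so the shares called do not cover members with few counts. Python 3.11.15 with pandas 2.3.3, NumPy 2.4.6 and SciPy 1.17.1 served for motifs and summaries, and matplotlib 3.10.9 for plots.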

Additional observations from a re-analysis of the deposited data

Results flagged for a closer look

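WT 2, which entered no comparison, had 4 Rab genes at more than 10 times the highest raw CPM of the other 4 libraries. Rab12 had 1480 counts in WT 2, or 391 CPM, against at most 22.5 CPM in the others. Rab43 had 1116 counts, or 295 CPM, against at most 0.300 CPM. Rab36 had 166 counts, or 43.9 CPM, against at most 3.49 CPM. Rab44 had 97 counts, or 25.6 CPM, against at most 1.24 CPM. WT 2 had 2 counts of Actb and 44 counts over the 12 oocyte markers, so these values need not come from the genes they are listed under.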

How the results depend on the processing

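Rab17 was the single Rab gene called with all 4 libraries, and it was also called with DESeq2 size factors, no filter, limma-voom and robust=FALSE. It stayed called without each KO library in turn, but it had 0 counts in every KO library. Those fits therefore kept the same contrast and add no support to the call. The count of Rab genes called lower was 0 with library size alone (Rab17 -8.26, edgeR adjusted p = 0.0531), with DESeq2 (-7.53, no adjusted p given) and with predicted, pseudogene and mitochondrial names left out (-8.24, edgeR adjusted p = 0.0628). It was also 0 at a mean of at least 5 CPM and with both WT libraries, with or without the replicate block. Rab17 did not pass the filter in any of those last fits and was not tested there. Its adjusted p ran from 6.34e-06 to 0.0628 over the alternatives on WT 1 that gave one. Leaving out a KO library gave 0 to 6 Rab genes higher and 1 to 8 lower, 0 to 13 GEF, 0 to 9 effector, 0 to 3 GAP, 0 to 2 prenylation and 0 to 4 Rab-like genes, the upper ends all without KO 1, where 4923 of 17498 genes passed. The GEF count was 1 with no filter, with DESeq2 and at a threshold of 0.1, and the effector count was 1 with no filter and with DESeq2; all genes called in those fits were 3.07% with no filter, 3.87% with DESeq2 and 3.06% at 0.1. The members' median log2 fold change was 0.12 at a mean of at least 5 CPM, where the cause was not tested. It was 0.75 with both WT libraries, beside 0.68 over all genes, and 2.52 with the replicate block, beside 1.97; these shifts exceed 0.1 for all genes and follow from adding WT 2.

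Leaving out a KO library turned the sign of the small log2 fold changes of 10 Rab genes. Of these, Rab5c, Rab20, Rab28, Rab29 and Rab40b are not among those with full statistics, and the other 5 ran from -0.228 to 0.06 for Rab38 (positive without KO 1), -0.029 to 0.209 for Rab2a (negative without KO 1 and without KO 2), -0.193 to 0.005 for Rab1b (positive without KO 1), -0.079 to 0.488 for Rab11b (negative without KO 3) and -0.158 to 0.022 for Rab35 (positive without KO 2 and without KO 3). With both WT libraries it reversed to -0.81 for Rab3d, 0.28 for Rab27a, 0.89 for Rab38, -0.30 for Rab3b, 0.83 for Rab14, 0.58 for Rab5a, 0.96 for Rab35 and -3.63 for Rin2. With both WT libraries and the replicate block it reversed to -0.45 for Rab3d, 0.55 for Rab39b, 2.43 for Rab31, 3.86 for Rab27a, 4.18 for Rab38, -0.10 for Rab3b, 2.56 for Rab14, 2.40 for Rab5a, 0.51 for Rab24, 4.54 for Rab35, 1.28 for Chml and -1.45 for Rin2. No Rab gene passed in either fit with edgeR, and 2 without the block and 0 with it had an unadjusted p under 0.05. Replicate numbers are shared by numbers 1 and 2 of each genotype alone, so whether they pair the samples could not be checked. Over 32 named genes and 14 alternatives, 381 of 431 values kept direction and side of the threshold, 20 passed where they had not, 3 no longer passed and 27 reversed. With 1 WT library the spread among WT oocytes was not measured, and members under 1 CPM rest on few counts.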
